A study of Mus musculus with 12 samples.

Results

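The transporters that carry organic anions, organic cations and drugs across cell membranes were followed in mouse kidney. They were taken as every gene with a single symbol in the array annotation whose symbol begins with Slc22a, Slco, Slc47a or Abcc followed by a digit, each represented by its probe set of highest mean. This rule gave 50 of the 19938 genes measured. They are 14 genes of the organic anion branch of Slc22, 6 of its organic cation and carnitine branch, 3 other Slc22 genes, 2 Slc47a genes, 15 Slco genes and 10 Abcc genes. RNA of whole kidneys from female mice was measured on 12 arrays, 4 in each of 3 groups. Wild-type mice received recombinant FGF23, at 500 ng per g body weight into the peritoneum, or 100 µl of saline vehicle by the same route, and KL null mice, which lack klotho, received vehicle. All were killed 1 hour after the injection, having been kept on standard diet for 5 to 8 weeks. The strain is given as C57BL/6 for the wild-type mice and as 129/SvEv/C57BL/6 for the KL null mice, although the protocol names littermates as controls, so genotype and strain cannot be told apart. The null allele is not described as limited to the kidney or to a cell type. Whether each array is a separate mouse is not said, so that the p-values reflect variation among samples that may be technical.

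Organic anion transporters (OATs) of the Slc22 family bring anions from blood into proximal tubule cells in exchange for dicarboxylates, and organic cation transporters (OCTs) of the same family bring in cations. Efflux into the tubule fluid follows through the proton exchangers of the Slc47a family (MATEs) and through ATP-driven pumps, among them the multidrug resistance proteins (MRPs) of the Abcc family. Slco genes encode organic anion transporting polypeptides (OATPs), which carry bile acids, steroid conjugates, thyroid hormones and drugs. Several of these genes are known to differ between the sexes in rodent kidney. FGF23 is a bone hormone that acts on the kidney through FGF receptors, with klotho as co-receptor.

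Values are log2 signals per probe set, so that 1 unit is a doubling, and are given as mean ± SD over the 4 arrays of a group. Levels of different probe sets are not set against each other. Differences were tested with limma over all 19938 genes, with all 12 arrays in 1 fit, and called genes are those whose adjusted p (Benjamini-Hochberg) was below 0.05. The standard deviation of all log2 values on an array ran from 2.17 to 2.28, and was lowest on replicates 1 and 2 of the FGF23 group. Kl stood at 10.61 ± 0.13 in vehicle, 10.51 ± 0.08 after FGF23 and 9.72 ± 0.07 in KL null. Which exons its probe set covers was not used here. Xist was between 11.06 and 11.41 on every array, and the Y-linked Eif2s3y, Kdm5d and Uty between 2.70 and 3.74, and all mice are labelled female. Proximal tubule markers were present on all arrays, with a mean level over 10 genes of 12.15 to 12.27 in vehicle, 12.08 to 12.12 after FGF23 and 11.79 to 11.97 in KL null.

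Many of the Slc22 genes lie next to each other on chromosome 19. In the order of RefSeq protein-coding genes, Slc22a19, Slc22a26 and Slc22a27 follow each other there, as do Slc22a29, Slc22a30, Slc22a8 and Slc22a6. Promoters of 6 of these 7 genes are printed because this cluster holds 5 of the genes called in KL null kidney next to 2 that were not: Slc22a19, Slc22a26, Slc22a27, Slc22a29 and Slc22a8 were called lower, and Slc22a30 and Slc22a6 were not called. Each window runs 5′ to 3′ on the gene's own strand, from 250 bases before to 50 bases after the annotated start, with sequence and coordinates from RefSeq on GRCm38.p6. The windows are chr19:7711261-7711560, chr19:7802618-7802917, chr19:8218851-8219150 and chr19:8405056-8405355 on the minus strand, and chr19:8592932-8593231 and chr19:8617746-8618045 on the plus strand. Capitals mark exact matches on either strand to GTTAAT, an arm of the motif bound by HNF1, a factor known to act on kidney transporter genes.
Slc22a19: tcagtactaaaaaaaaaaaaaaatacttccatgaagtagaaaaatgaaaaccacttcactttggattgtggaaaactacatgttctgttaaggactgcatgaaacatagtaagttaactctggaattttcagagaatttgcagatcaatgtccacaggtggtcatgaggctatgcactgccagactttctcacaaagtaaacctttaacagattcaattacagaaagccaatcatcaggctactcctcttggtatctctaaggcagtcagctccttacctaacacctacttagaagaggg
Slc22a26: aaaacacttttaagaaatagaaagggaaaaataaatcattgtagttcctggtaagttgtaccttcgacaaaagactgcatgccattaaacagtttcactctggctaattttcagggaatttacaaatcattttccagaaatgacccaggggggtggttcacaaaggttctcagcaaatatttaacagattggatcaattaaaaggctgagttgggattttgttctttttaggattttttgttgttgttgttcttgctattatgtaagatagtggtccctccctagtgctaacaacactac
Slc22a29: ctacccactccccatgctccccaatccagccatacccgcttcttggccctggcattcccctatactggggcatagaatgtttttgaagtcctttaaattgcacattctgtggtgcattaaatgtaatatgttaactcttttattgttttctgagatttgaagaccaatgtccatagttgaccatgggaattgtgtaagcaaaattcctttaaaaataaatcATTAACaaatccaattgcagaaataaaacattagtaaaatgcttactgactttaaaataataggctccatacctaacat
Slc22a30: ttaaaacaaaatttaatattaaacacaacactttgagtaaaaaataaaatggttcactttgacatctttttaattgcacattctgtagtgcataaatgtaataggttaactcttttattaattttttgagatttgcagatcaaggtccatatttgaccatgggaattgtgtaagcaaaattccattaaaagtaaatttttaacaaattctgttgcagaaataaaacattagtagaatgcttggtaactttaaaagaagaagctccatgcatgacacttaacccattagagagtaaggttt
Slc22a8: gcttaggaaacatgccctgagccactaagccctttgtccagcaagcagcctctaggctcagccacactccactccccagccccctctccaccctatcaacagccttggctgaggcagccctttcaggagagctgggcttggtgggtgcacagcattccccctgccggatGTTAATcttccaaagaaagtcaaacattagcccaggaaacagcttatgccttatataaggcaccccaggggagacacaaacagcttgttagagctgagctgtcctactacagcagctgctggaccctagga
Slc22a6: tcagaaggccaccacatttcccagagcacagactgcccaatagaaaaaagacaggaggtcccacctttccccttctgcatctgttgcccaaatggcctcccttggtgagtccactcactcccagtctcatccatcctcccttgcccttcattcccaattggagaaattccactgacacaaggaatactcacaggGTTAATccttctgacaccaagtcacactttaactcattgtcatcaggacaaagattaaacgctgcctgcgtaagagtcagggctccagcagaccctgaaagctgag
The letters GTTAAT stood 81 bases before the start of Slc22a8 and 56 bases before that of Slc22a6, and on the other strand, as ATTAAC, 29 bases before that of Slc22a29. The windows of Slc22a19, Slc22a26 and Slc22a30 held no exact match. Over all 32851 windows of this length in the table, 7.1% held these letters, against 4 of 47 windows of the transporters (8.51%), which come from 40 of the 50 genes. Among the called transporters with a window it was 2 of 13. The full palindrome GTTAATNATTAAC with up to 2 mismatches, which overlaps the first motif, was found in 1.36% of all windows and in 4 of the 47. These were windows of Slc22a29, which was called, and of Slc22a30, Slc22a22 and Abcc2, which were not. Among the called transporters it was thus 1 of 13. The HNF4 core CAAAGTCCA had an exact match in 0.475% of all windows and in 0 of 47. With up to 1 mismatch it was found in 8.47% of all windows and in 7 of 47 (14.9%). Among the called transporters it was 3 of 13 (23.1%), namely Slc22a19, Slc22a29 and Slco1a6. The other windows, that of Slc22a30 among them, belong to genes that were not called. The windows of Slc22a29 and Slc22a30 were 79.3% identical over 271 aligned bases, which is 71.7% of all 300 bases. Other pairs of windows in this cluster were 56.6% to 69.9% identical over their aligned bases. A match is only a match of letters in this window, and probe sets of such close paralogs may share signal, which could not be checked because probe sequences were not used here.

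Among the transporters called in KL null kidney, far more were lower than higher. Of the 50, 15 were called against wild-type vehicle, where 8.01% of all genes were called. They were 14 lower, against 4.44% of all genes, and 1 higher, against 3.58%. Over all genes this was 885 lower and 713 higher, and 1369 lower and 453 higher when each array was centred on its median, which gave 16 lower and 1 higher among the transporters. Of the transporters, 8 were called and differed by at least 2-fold, where 0.682% of all genes did so, and 7 of these 8 were lower. All 4 KL null arrays were below all 4 vehicle arrays for 15 transporters (30%), against 7.44% of all genes, and above them for 4 (Abcc1, Abcc5, Slco3a1 and Slco4c1, 8%), against 6.35%. All 4 were below all 8 wild-type arrays for 11 transporters (22%, against 4.35% of all genes), namely Slc22a2, Slc22a7, Slc22a8, Slc22a12, Slc22a13, Slc22a19, Slc22a23, Slc22a26, Slc22a27, Slc22a29 and Abcc3. They were above all 8 for Slco4c1 and Abcc5, which is 4% of the transporters, against 3.78% of all genes. The median log2 difference of the 50 was -0.05 and that of all genes 0.03. Called or not, 28 of the 50 had a negative difference, against 8703 of all 19938 genes. Most calls were in Slc22, with 8 lower of 14 in the organic anion branch (median log2 difference -0.65), 1 of 6 in the cation and carnitine branch (median 0.10) and 2 of the other 3. Slco had 2 lower and 1 higher of 15, Abcc 1 lower of 10 and Slc47a 0 of 2.

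**Figure D1:**
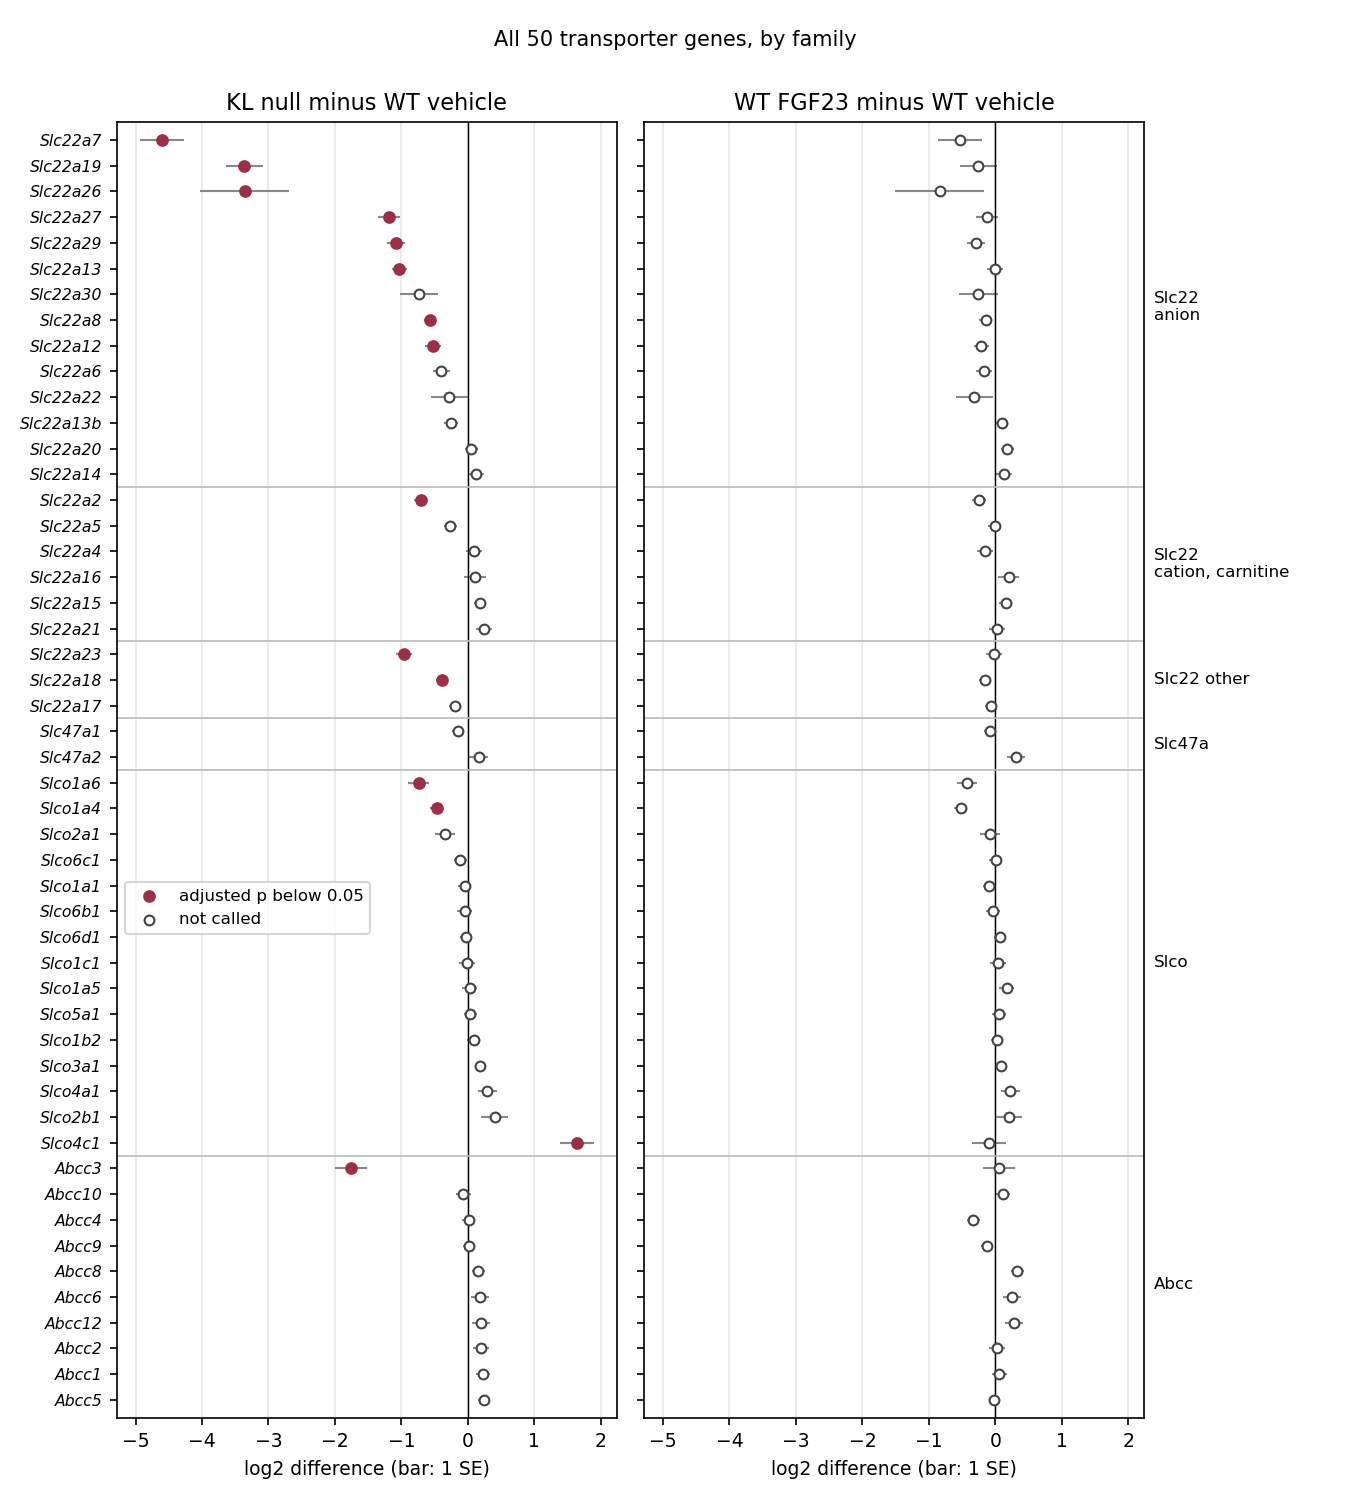
Log2 difference from wild-type vehicle, with its standard error from limma, for each of the 50 transporters in KL null and after FGF23, grouped by family. Slc22a7 lies lowest at -4.61 and Slco4c1 highest at 1.64, both in KL null, while the FGF23 differences lie between -0.84 and 0.33.

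The largest fall was that of Slc22a7, which encodes OAT2, a carrier of prostaglandins, cyclic nucleotides and other anions. Its signal was 10.13, 10.16, 10.91 and 9.97 in vehicle, 8.76, 9.24, 10.52 and 10.51 after FGF23, and 5.93, 5.59, 5.33 and 5.90 in KL null. Every KL null array lay below every wild-type array. The difference from vehicle was -4.61 (SE 0.33), 24.3-fold, with an adjusted p of 2.78e-06 in limma.

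Slc22a19 encodes OAT5, a carrier of steroid sulfates in the proximal tubule. It was at 11.59, 11.65, 11.51 and 11.49 in vehicle, 11.06, 11.05, 11.50 and 11.60 after FGF23, and 7.29, 7.76, 8.68 and 9.05 in KL null. The groups did not overlap, and KL null spread over a wider range (SD 0.81) than vehicle (SD 0.07). The fall was 10.3-fold (log2 difference -3.37, SE 0.28, adjusted p 7.41e-06).

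Its chromosomal neighbours Slc22a26 and Slc22a27 are paralogs found in rodents and less well studied. Slc22a26 was at 8.98, 8.55, 8.80 and 6.09 in vehicle, 5.79, 5.97, 8.61 and 8.70 after FGF23, and 4.75, 4.61, 4.80 and 4.83 in KL null. Wild-type arrays thus fell into 3 low and 5 high values, and KL null lay below both. The fall was 10.3-fold (log2 difference -3.36, SE 0.67, adjusted p 0.00651), and without vehicle replicate 4 the log2 difference was -4.03 (adjusted p 0.00105). Over the 22 alternative settings the log2 difference of Slc22a26 ran from -4.03 to -2.93, and its adjusted p up to 0.038. Slc22a27 was at 6.25, 6.17, 6.10 and 6.76 in vehicle, 6.43, 6.24, 6.15 and 5.96 after FGF23, and 5.39, 5.38, 4.81 and 4.95 in KL null, 2.28-fold lower than in vehicle with no overlap (adjusted p 0.00047).

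In the neighbouring run, Slc22a29 was at 8.86, 8.86, 9.01 and 9.38 in vehicle, 8.79, 8.39, 8.97 and 8.81 after FGF23, and 8.11, 7.73, 8.05 and 7.90 in KL null. It fell 2.11-fold (adjusted p 0.000303), without overlap of the groups. The adjacent Slc22a30, whose promoter is so similar, was not called (adjusted p 0.147), with 8.93, 8.38, 8.86 and 8.40 in vehicle and 8.95, 7.56, 7.63 and 7.49 in KL null. KL null replicate 1 stood just above the highest vehicle array, and the other 3 below the lowest. Without that array the log2 difference went from -0.74 to -1.08 and the adjusted p to 0.00606. Slc22a30 was called in only 2 of the 22 alternative settings. Its log2 difference ran from -1.08 to -0.60 over them, and its adjusted p up to 0.325.

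Next in this run are Slc22a8 and Slc22a6, which encode OAT3 and OAT1, the main basolateral entry routes of anionic drugs and of p-aminohippurate in the kidney. Slc22a8 was at 12.11, 11.97, 12.27 and 12.02 in vehicle and 11.59, 11.65, 11.55 and 11.30 in KL null. It was 1.49-fold lower, with no overlap (adjusted p 0.0016). Slc22a6 was at 10.69 ± 0.27 in vehicle and 10.29 ± 0.15 in KL null, a log2 difference of -0.40 that was not called (adjusted p 0.0591). The call of Slc22a6 was near the threshold and was made in 6 of 22 alternative settings.

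Among the apical exchangers, Slc22a13, which encodes OAT10, an exchanger of urate and nicotinate, was at 10.75, 10.91, 10.91 and 10.55 in vehicle, 10.61, 10.74, 10.68 and 11.07 after FGF23, and 9.83, 9.88, 9.56 and 9.73 in KL null. All KL null arrays were below all others, by 2.04-fold on average against vehicle (adjusted p 8.64e-05). Slc22a12, the urate reabsorber URAT1, fell from 11.20 ± 0.26 to 10.67 ± 0.13 (1.44-fold, adjusted p 0.0129). Its call was lost without vehicle replicate 1, vehicle replicate 3 or KL null replicate 3, with adjusted p of 0.0516, 0.0541 and 0.0513.

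The other 4 genes of the anion branch, Slc22a13b, Slc22a14, Slc22a20 and Slc22a22, were not called, with log2 differences of -0.28 to 0.12. Of the 3 Slc22 genes outside both branches, the orphan carrier Slc22a23 fell 1.94-fold, from 9.65 ± 0.19 to 8.70 ± 0.23 (adjusted p 0.000187). Slc22a18, an imprinted gene, fell 1.31-fold, from 10.61 ± 0.11 to 10.23 ± 0.16 (adjusted p 0.0181). That call was lost without vehicle replicate 3, KL null replicate 3 or KL null replicate 4 (adjusted p 0.0706, 0.0707 and 0.0506) and after further quantile normalization (0.0678). Slc22a17, which encodes a receptor for lipocalin 2, was not called.

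**Figure D2:**
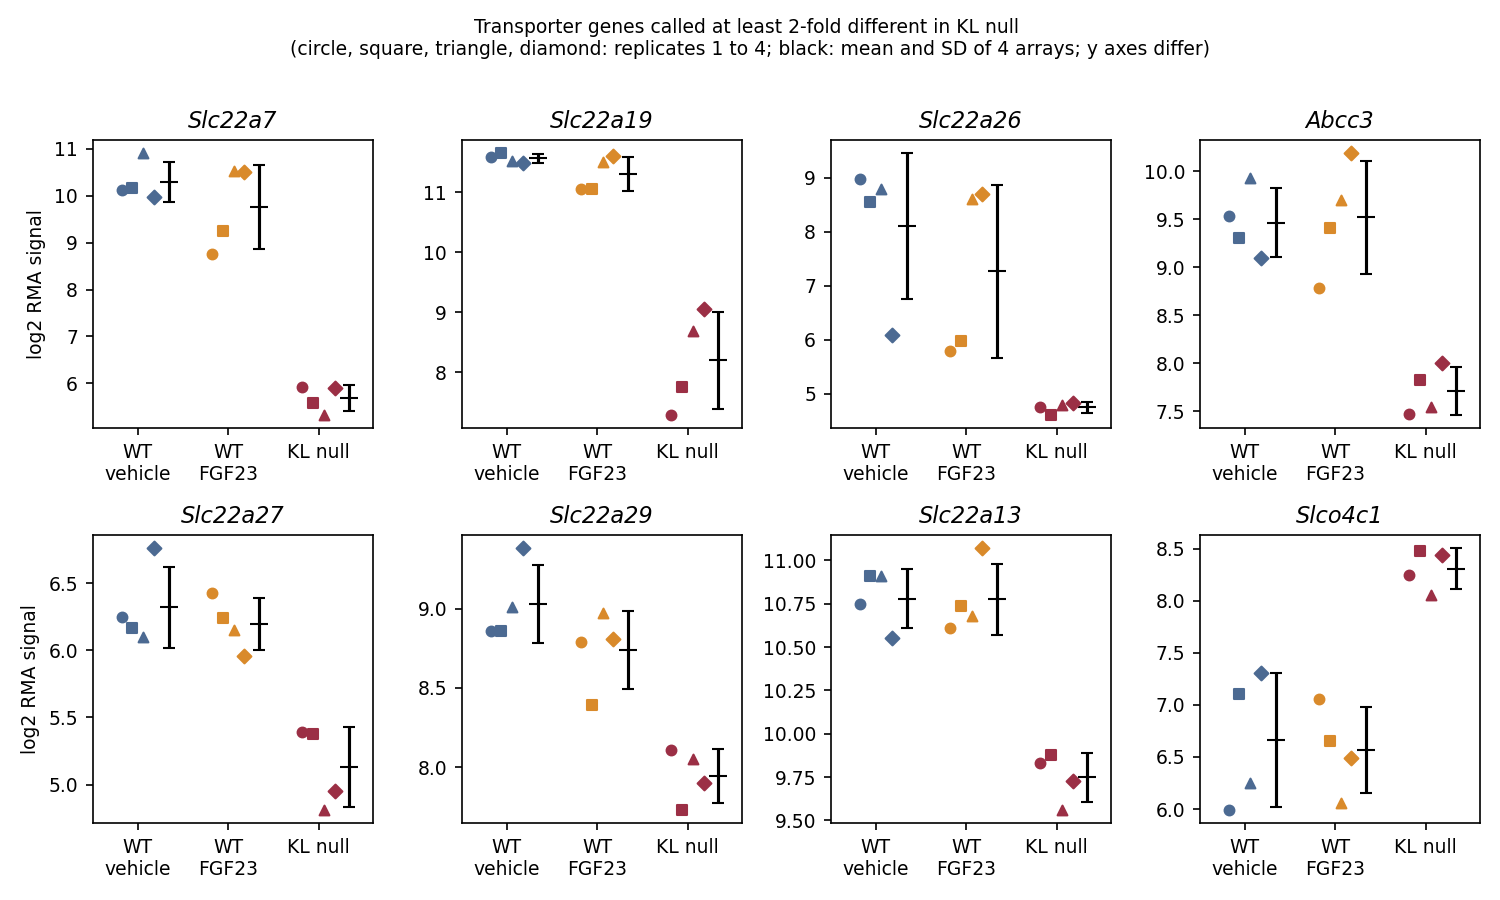
Log2 signal on each of the 12 arrays for the 8 transporters called with at least a 2-fold difference in KL null, with mean and SD of each group; the vertical scale differs between panels. The KL null arrays lie below all wild-type arrays for 7 genes and above them for Slco4c1.

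Of the cation and carnitine branch, Slc22a2 was called. It encodes OCT2, the basolateral uptake route for creatinine, metformin and other cations. Its signal was 11.44, 11.24, 11.50 and 11.34 in vehicle and 10.68, 10.93, 10.44 and 10.62 in KL null, which was 1.64-fold lower without overlap (adjusted p 0.000689). Slc22a5, the carnitine transporter OCTN2, was at 10.10 ± 0.07 in vehicle and 9.83 ± 0.14 in KL null and was not called (adjusted p 0.116). The ergothioneine transporter Slc22a4 and Slc22a15, Slc22a16 and Slc22a21 had log2 differences of 0.09 to 0.24, none of them called. At the next step of cation secretion no gene was called. Slc47a1, which encodes MATE1 of the brush border, was at 11.34 ± 0.11 in vehicle and 11.18 ± 0.13 in KL null (log2 difference -0.15, SE 0.09, adjusted p 0.344), and Slc47a2 was not called either. Whether OCT2 and MATE1 differed from each other in their change was not tested.

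**Figure D3:**
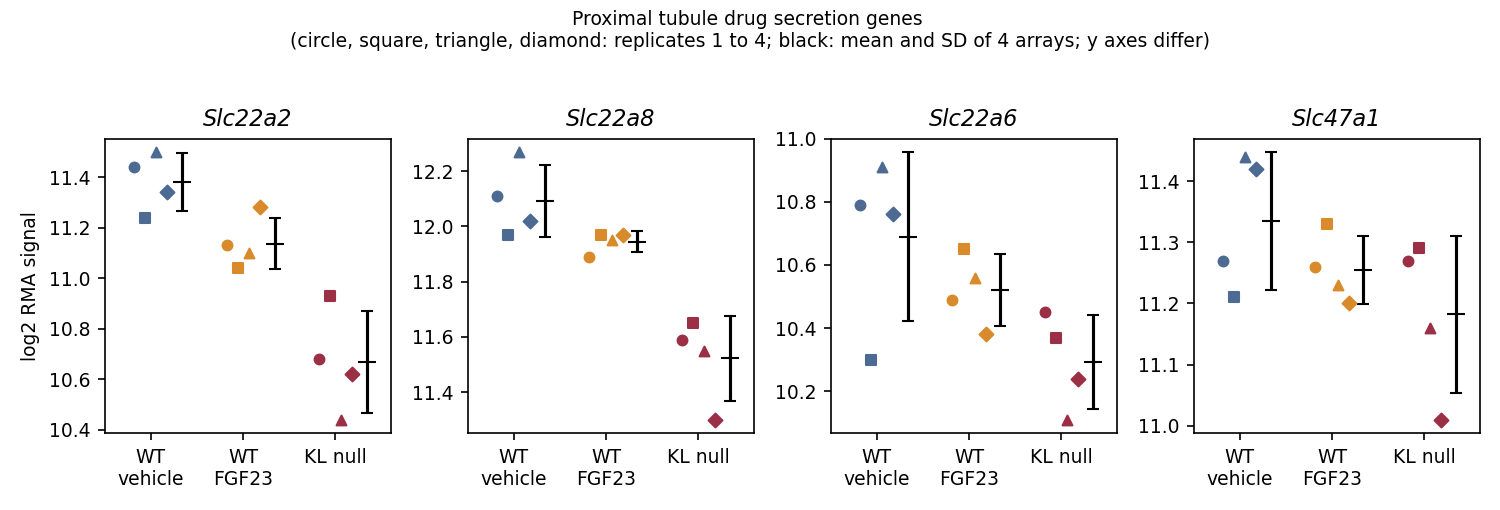
Log2 signal on each array for Slc22a2 (OCT2), Slc22a8 (OAT3), Slc22a6 (OAT1) and Slc47a1 (MATE1), with mean and SD of each group of 4. KL null lies below vehicle without overlap for Slc22a2 and Slc22a8, while the groups overlap for Slc22a6 and Slc47a1.

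The 1 transporter that rose was Slco4c1, which encodes OATP4C1, a basolateral carrier of thyroid hormones and digoxin. It was at 5.99, 7.10, 6.25 and 7.31 in vehicle, 7.06, 6.65, 6.06 and 6.49 after FGF23, and 8.25, 8.48, 8.05 and 8.44 in KL null. All KL null arrays were above all wild-type arrays, 3.12-fold over vehicle (log2 difference 1.64, SE 0.26, adjusted p 0.00132). Its neighbours on chromosome 1, Slco6b1 and Slco6c1, were not called (log2 differences -0.05 and -0.11).

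A pair of other Slco genes, both carriers of bile acids and steroid conjugates, fell. Slco1a6 was at 10.80 ± 0.07 in vehicle and 10.05 ± 0.07 in KL null (1.67-fold, adjusted p 0.00868). Slco1a4 was at 5.60 ± 0.16 in vehicle and 5.14 ± 0.12 in KL null (1.38-fold, adjusted p 0.00871). It was at 5.08 ± 0.13 after FGF23, so that KL null was below vehicle but not below FGF23-treated wild type. Slco1a4 lies below the filter on mean level that kept 13289 genes in an alternative fit. Slco1a1, known as a gene of male kidney, was at 3.05 ± 0.09 in vehicle and 3.0 ± 0.04 in KL null, near the bottom of the scale on all arrays. The remaining 11 Slco genes, the prostaglandin transporter Slco2a1 among them, had log2 differences of -0.35 to 0.40 and were not called.

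Among the Abcc genes, Abcc3 was called. It encodes MRP3, a basolateral pump for glucuronide conjugates. Its signal was 9.53, 9.30, 9.93 and 9.10 in vehicle, 8.78, 9.41, 9.70 and 10.19 after FGF23, and 7.47, 7.82, 7.54 and 8.00 in KL null. There was no overlap, and the fall was 3.38-fold (log2 difference -1.76, SE 0.24, adjusted p 0.000479). The apical pumps were not called, with Abcc2 (MRP2) at 11.03 ± 0.21 in vehicle and 11.23 ± 0.20 in KL null (adjusted p 0.368) and Abcc4 (MRP4) at 9.83 ± 0.19 and 9.84 ± 0.12 (adjusted p 0.973). Abcc5 was above all wild-type arrays in KL null, at 8.05 ± 0.04 against 7.82 ± 0.12 in vehicle, with an adjusted p of 0.0828. The remaining 6 genes, which include Abcc8 and Abcc9, the sulfonylurea receptors of potassium channels, had log2 differences of -0.07 to 0.23 and were not called.

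No transporter passed the test 1 hour after FGF23 in wild-type kidney. Of all genes, 17 were called (0.0853%), and of the 50 transporters 0 were. At an unadjusted p below 0.05 it was 6 of the 50 (12%), against 15.4% of all genes, a share no higher than the background. Of these, Slco1a4, Slco1a6, Abcc4 and Slc22a2 were lower and Abcc8 and Slc47a2 higher. All 4 FGF23 arrays were below all 4 vehicle arrays for Slco1a4, Abcc4 and Slc22a18 (6%), against 2.92% of all genes, and above them for Abcc8, Slc47a2 and Slc22a15 (6%), against 4.09%. The median log2 difference of the 50 was -0.02 and that of all genes 0.04. This comparison and that of KL null share the 4 vehicle arrays.

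The 3 smallest p-values after FGF23 were those of Slco1a4, Abcc8 and Abcc4. Slco1a4 was at 5.79, 5.46, 5.49 and 5.67 in vehicle and 5.08, 4.98, 5.26 and 5.01 after FGF23, a log2 difference of -0.52 (SE 0.10) with an adjusted p of 0.0842 in limma. Its groups did not overlap, and the adjusted p ran from 0.053 to 0.883 over 21 alternative settings. Abcc8 was at 5.21 ± 0.11 in vehicle and 5.53 ± 0.12 after FGF23, and Abcc4 at 9.83 ± 0.19 and 9.50 ± 0.10, each with an adjusted p of 0.241. For Slc22a2 the FGF23 arrays, at 11.13, 11.04, 11.10 and 11.28, averaged 0.24 log2 units below vehicle (adjusted p 0.298). A difference that misses the threshold with 4 arrays a group does not show that the levels were alike.

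**Figure D4:**
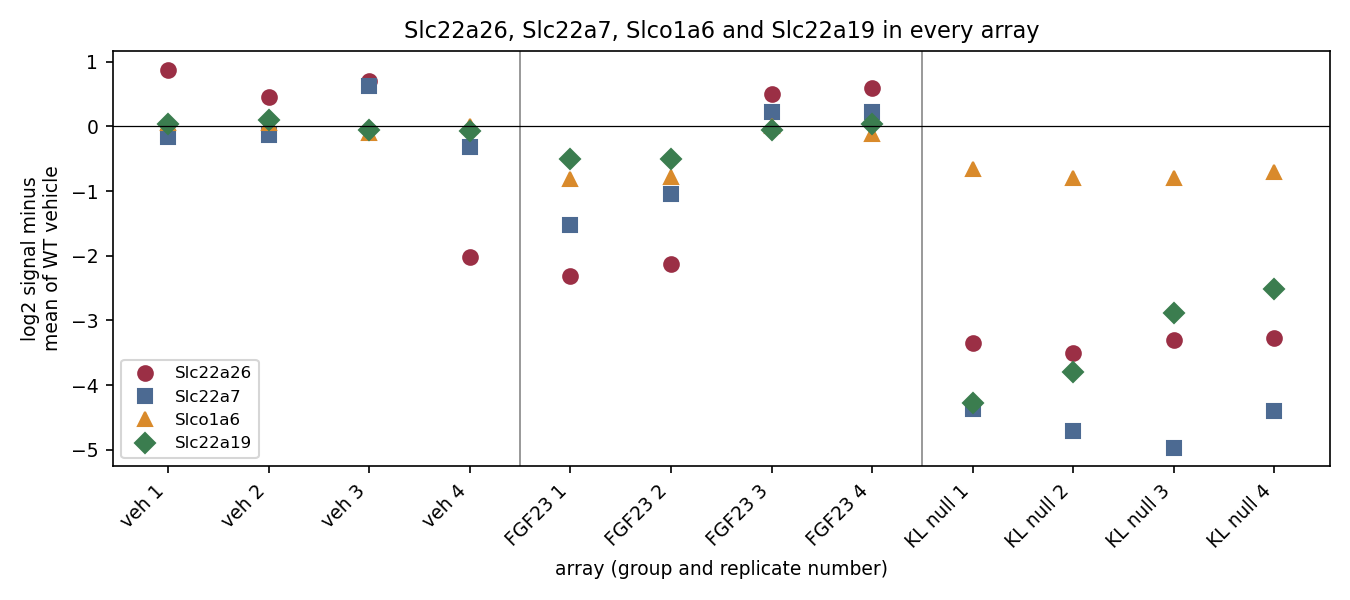
Signal of Slc22a26, Slc22a7, Slco1a6 and Slc22a19 on each of the 12 arrays, as log2 difference from the mean of the 4 vehicle arrays. FGF23 replicates 1 and 2 lie below the other 6 wild-type arrays for all 4 genes, and vehicle replicate 4 lies low for Slc22a26. The 4 genes were picked from the 8 transporters for which these 2 arrays lie lowest among wild type.

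Some of the genes that fell in KL null also varied between the wild-type arrays. FGF23 replicates 1 and 2, the arrays of lowest overall spread, were below the other 6 wild-type arrays for 8 transporters (16%), where this held for 10.6% of all genes, and above them for 6 (12%), where this held for 21.2%. Of the 8, Slc22a7, Slc22a19, Slc22a26, Slc22a29 and Slco1a6 were called lower in KL null, while Slc22a22, Slc22a30 and Abcc1 were not called. Whether these shares differ from those of all genes was not tested. Slco1a6, for example, was at 9.98 and 10.01 on these arrays, at 10.80 and 10.68 on the other FGF23 arrays, and at 10.69 to 10.85 in vehicle. With both arrays left out, the FGF23 difference of Slc22a7 went from -0.54 to 0.22 and that of Slc22a26 from -0.84 to 0.55 on the log2 scale, and neither was called in either case. The mean level of 4 female-biased genes outside the transporter families ran from 10.48 to 11.43 within the FGF23 group and from 11.27 to 11.49 within vehicle, and their part in the result was not tested.

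The 3 transporters listed as higher in female mouse kidney were called lower in KL null, where 4.44% of all genes were. The lists of sex-biased genes were chosen with earlier results of these data known, so they are not independent of them. The female-biased list held Slc22a7, Slc22a19 and Abcc3, all 3 of them lower as given above, and 4 measured genes outside the transporter families. Of these 4, the steroid reductase genes Akr1c18 and Akr1c14 fell by 4.69 and 3.02 on the log2 scale and the amino acid transporter Slc7a12 fell by 0.98, while Cyp4a14 rose by 0.66. The mean level of these 4 genes was 11.27 to 11.49 in vehicle and 8.96 to 9.58 in KL null. Of the 5 transporters known as higher in male kidney, 2 fell, Slc22a2 and Slc22a12, and Slc22a6, Slc22a30 and Slco1a1 were not called. Of 8 male-biased genes outside the families, Slc7a13, Cyp4a12a, Cyp4a12b and Cyp2e1 rose and Kap and Odc1 fell. None of the 5 transporters of the male-biased list was called higher, and 4 of its 8 other genes were.

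The partners of these transporters were divided. Of 16 other carriers of organic ions and scaffolds, 6 fell and 3 rose in KL null, where 4.44% of all genes fell and 3.58% rose. After FGF23, 0 of them were called. This list, too, was chosen with earlier results of these data known. Slc17a3, an apical exit route for anions and urate, fell from 11.70 ± 0.12 to 10.20 ± 0.38 (adjusted p 5.4e-05). Slc13a3, the basolateral dicarboxylate carrier that feeds OAT exchange, had a log2 difference of -0.72 (adjusted p 0.0025), and the brush border scaffold Pdzk1 one of -0.49 (adjusted p 0.00268). Slc51a, Slc15a2 and the scaffold Slc9a3r1 fell as well. The urate transporter Slc2a9, Slc16a9 and the drug pump Abcb1b rose, by 0.58, 0.64 and 0.61, and the pump Abcg2 was not called (adjusted p 0.347). The list's median log2 difference was -0.13, against 0.03 for all genes.

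Of 12 regulators of transporter genes that were measured, 3 fell and 2 rose in KL null, where 4.44% of all genes fell and 3.58% rose. Hnf4a, a factor that binds many OAT promoters, was at 11.23 ± 0.11 in vehicle and 10.88 ± 0.07 in KL null (adjusted p 0.0177). The growth hormone receptor gene Ghr fell by 0.73 (adjusted p 0.000506) and Bcl6, a repressor tied to sex-biased expression in liver, fell by 0.60 (adjusted p 0.0247). The nuclear receptors Nr1i3 (CAR) and Nr1h4 (FXR) rose, by 0.52 and 0.40. None of the 12 was called after FGF23.

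Markers of the cells that carry these transporters moved as well. Of 10 proximal tubule markers, 7 fell in KL null, where 4.44% of all genes fell. The median log2 difference of the 10 was -0.36, with a range from 0.05 for Aqp1 to -0.99 for Gatm. In whole kidney RNA, fewer cells of a type and less RNA per cell cannot be told apart. Of the 14 transporters that fell, 7 had a larger log2 difference than any of these markers, namely Slc22a7, Slc22a13, Slc22a19, Slc22a26, Slc22a27, Slc22a29 and Abcc3. The other 7 lay within their range, but Gatm alone set its lower end, and the next lowest marker was Miox at -0.51. Slc22a2, Slc22a8, Slc22a12, Slc22a23 and Slco1a6 lay between Miox and Gatm, and Slc22a18 and Slco1a4 fell less than Miox. Differences between transporters and markers were not tested. Slc22a13 (-1.03, SE 0.12) and Slc22a29 (-1.08, SE 0.14) were close to Gatm (SE 0.10). Of 4 injury markers, 3 rose (Lcn2, Krt20 and Vcam1), and the mean level of the 4 was 5.70 to 7.38 in vehicle and 6.79 to 8.00 in KL null. Havcr1 was not called (adjusted p 0.843) and varied widely among wild-type arrays, with an SD of 2.54 in vehicle and 2.34 after FGF23. Of 6 immune cell markers, 2 rose (Lyz2 and Cd68) and Csf1r fell, and their mean level was 6.76 to 7.27 in vehicle and 7.08 to 7.76 in KL null. Of podocyte, distal tubule and hepatocyte markers 1 each fell (Podxl, Slc12a3 and Alb), and of 5 collecting duct, 5 endothelial and 5 adrenal markers 0 were called. The part of these cell types in the transporters' differences was not tested.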

How the data were processed

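Expression was measured on 12 arrays, 4 per group. The deposited values are log2 signals per probe set, which the authors obtained by RMA (Partek 6.2, per the submitters' processing notes). Such values understate the folds of dim probe sets. Detection calls and scanner files were not used here. Of 28853 probe sets, 21789 had 1 gene symbol in the platform annotation, 1621 had several and 5443 had none, and only the first were named. All 50 transporters matched the RefSeq gene table by Entrez identifier, and each had 1 probe set. The probe set that names Slc22a28 with its neighbours was not counted among the 50.

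All genes were fitted together with limma 3.58.1 (lmFit and eBayes, R 4.3.3) by group means, two-sided, with no filter on low values. Of the 50, 36 passed the filter on mean level of an alternative fit, which kept 13289 genes. Array number limits the precision. Values per array are given for transporters called with at least a 2-fold difference, means and SD for the other called ones and for textbook kidney transporters, and the 3 smallest p where none was called. Per-array values of Slc22a2, Slc22a8, Slc22a30, Slco1a4 and Slco1a6 and the values of Abcc5 were added after they were seen. The members and gene lists were chosen with earlier results of these data known. Alternatives covered scaling, filter, probe set choice, moderation, array weights, samples in the fit, a replicate block, array spread and leaving out arrays. The fit was tested on simulated data with known differences. Promoter letters were matched with Python 3.11.15, and identities computed with Biopython 1.88.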

Additional observations from a re-analysis of the deposited data

Results flagged for a closer look

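Within groups of 4 arrays, 8 of 150 sets of transporter values (5.33%) held an array whose gap to its nearest neighbour took up most of the group's range, about the share that chance gives. In KL null these were replicate 1 for Slc22a30 (8.95 against 7.49 to 7.63, gap 0.904 of the range) and for Slco1b2 (3.36 against 3.08 to 3.12, gap 0.857), and replicate 4 for Abcc10 (6.81 against 7.08 to 7.13, gap 0.844). In vehicle they were replicate 4 for Slc22a26 (6.09 against 8.55 to 8.98, gap 0.851) and for Abcc2 (11.35 against 10.90 to 10.95, gap 0.889), and replicate 3 for Slc22a18 (10.77 against 10.54 to 10.57, gap 0.87). After FGF23 they were replicate 1 for Slco1a1 (3.26 against 2.82 to 2.88, gap 0.864) and replicate 2 for Slco4a1 (7.41 against 7.64 to 7.68, gap 0.852).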

How the results depend on the processing

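Over 22 alternatives, 12 of which left out 1 array each, 13 to 20 transporters were called in KL null and 0 after FGF23. Of the 15 called, 13 were called in each alternative that tested them, and the exceptions were Slc22a12 and Slc22a18; the filter on low values left Slco1a4 untested. No called difference changed sign. With array quality weights 2852 genes were called in KL null, and leaving out single arrays gave 828 to 1728, with 831 without vehicle replicate 1, 828 without vehicle replicate 3, 1003 without KL null replicate 2 and 856 without KL null replicate 3. After FGF23, 5 genes were called with arrays centred on their medians, 9 after quantile normalization, 7 with only the 2 groups compared in the fit, 11 with array spread as a covariate and 8 without the 2 FGF23 arrays of lowest spread, and leaving out single arrays gave 4 to 14. The cause was not tested. With the replicate number as a block, 15 transporters and 1548 genes were called in KL null and 6 genes after FGF23. The numbers share no stated origin. Between groups, correlations of same-numbered arrays ran from -0.216 to 0.259, with 7 of 12 pairs above 0.1. Those of arrays with unlike numbers ran from -0.279 to 0.238, with 12 of 36 pairs above 0.1. Of the 12 arrays, 6 correlated best with an array of their own number. Whether the numbers mark pairs was not tested.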

Other observations

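A probe set that names Slc22a28, Slc22a29 and Slc22a30 together, and so was not counted among the transporters, was at 9.81 ± 0.31 in vehicle, 9.33 ± 0.53 after FGF23 and 8.84 ± 0.58 in KL null. Its KL null arrays were at 9.70, 8.40, 8.61 and 8.66, with replicate 1 high, as for Slc22a30.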
